A study of Mus musculus with 8 samples.

Results

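Of the 46517 genes in the count table, 9 that bring fatty acids and lipoprotein lipid into cells were followed in whole liver RNA. They were listed by name and function as Cd36, Slc27a2, Slc27a4, Fabp4, Lpl, Lipc, Vldlr, Lrp1 and Scarb1. The rule used no measured value, but the list was made with earlier results of these data known, so a lower Cd36 or Vldlr is not independent evidence. Each group had 4 male C57BL/6 mice, called MøFoxO1-KO and WT. Every mouse carried FoxO1 loxP/loxP, so the WT mice, littermates of the others, had floxed alleles without Cre. MøFoxO1-KO mice also carried Lyz2-Cre, whose lysozyme 2 promoter drives the recombinase in myeloid cells and not in hepatocytes. All mice ate the NASH diet, which induces nonalcoholic steatohepatitis, for 25 weeks from 6 weeks of age, were fasted for 16 hours and were 31 weeks old. The comparison asks whether uptake genes of the liver differed when FoxO1 was removed from myeloid cells.

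Fatty acids reach a liver cell as free acids bound to albumin or inside lipoprotein particles. Free acids cross the plasma membrane with the help of CD36 and of the FATP proteins of the Slc27a family, and FABP proteins carry them inside the cell. Lipoprotein lipase and hepatic lipase cut triglycerides and phospholipids of the particles, and receptors such as VLDLR, LRP1 and SR-B1 take up the particles or their cholesterol. CD36 is low in lean mouse hepatocytes, increases in fatty liver, and is also made by macrophages and endothelial cells.

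Libraries held between 15253218 and 18025481 counted reads. Normalized counts are the reads of a mouse divided by its TMM-scaled library size and brought to the average library size. All 9 uptake genes passed the filter on low counts, with 51 to 34319 reads per mouse, and were tested with 13278 genes in all. Foxo1 itself lay at 302 to 458 normalized counts in WT livers and at 289 to 429 in MøFoxO1-KO livers (edgeR, adjusted P = 0.686), which is RNA of every liver cell type together. In bulk RNA, fewer cells of a type and less RNA per cell cannot be told apart. The hepatocyte marker Alb reached at least 681296 normalized counts in every mouse. The macrophage markers Adgre1 and Clec4f were present in all livers, and the 6 adipocyte markers summed to 0 to 4508 normalized counts, nearly all of it Cfd.

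Cd36 was the only uptake gene that met both limits of a call, which were 0.05 for the adjusted P and 1.5 for the size of the log2 fold change. Its mean in MøFoxO1-KO livers was 33.3% of that in WT livers. Vldlr had nearly the same estimated change with a wider error and was not called by edgeR. The other 7 genes had log2 fold changes between -0.28 and 0.23. Called lower genes made up 0.136% of all genes tested. At an unadjusted P under 0.05, 2 of the 9 genes were lower and 0 were higher in MøFoxO1-KO livers, against 8.06% and 8.65% of all genes tested. The median log2 fold change of the 9 genes was 0.14, beside -0.01 for all genes tested.

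**Figure D1:**
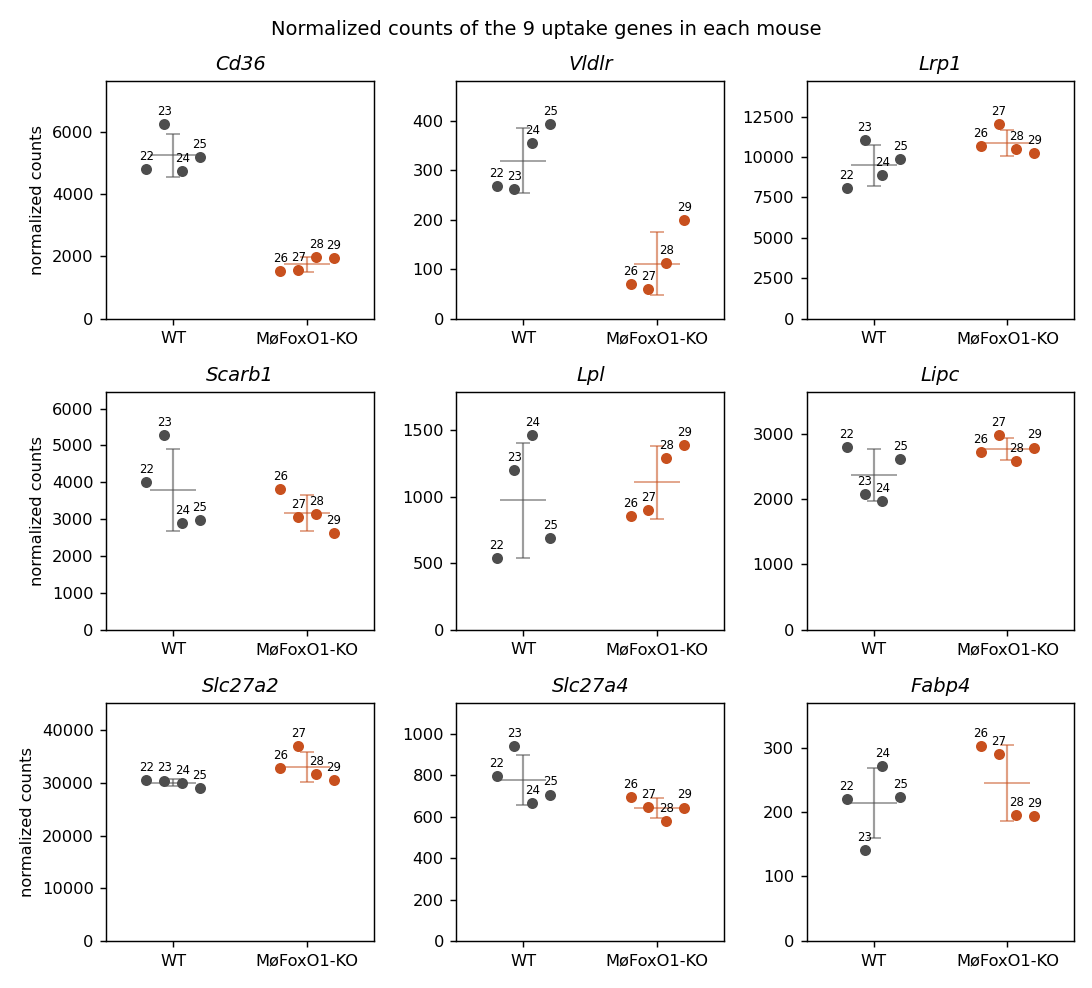
Normalized counts (y axis, linear from 0) of each uptake gene in the 4 WT and 4 MøFoxO1-KO mice (x axis). Each point is a mouse with its replicate number, and the line and bar are the mean and SD. All 4 MøFoxO1-KO points of Cd36 and Vldlr lie under all WT points, the lowest WT mice having 4759 and 261 and the highest MøFoxO1-KO mice 1975 and 200.0.

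Cd36 encodes a membrane receptor for long-chain fatty acids and oxidized lipoproteins (ENSMUSG00000002944, chromosome 5 of GRCm38, 17781690 to 17888801, minus strand). WT replicates 22, 23, 24 and 25 had 4807, 6266, 4759 and 5191 normalized counts. MøFoxO1-KO replicates 26, 27, 28 and 29 had 1540.0, 1549, 1975 and 1940 normalized counts. The groups were far apart, and the highest MøFoxO1-KO liver was well under the lowest WT liver. On average WT livers had 5256 ± 701 and MøFoxO1-KO livers 1751 ± 239 normalized counts (SD, n = 4 each). In edgeR this was a log2 fold change of -1.59 ± 0.15 (SE) with a 95% interval from -1.91 to -1.26 and a Benjamini-Hochberg adjusted P of 0.00935. Cd36 ranked 1 by P value among the 13278 genes. Without WT replicate 23, the highest liver, the log2 fold change was -1.49 and so under the fold limit, with an adjusted P of 0.0146 in edgeR. The exact permutation test gave P = 0.0286, the smallest that 4 mice against 4 allow. Normalized counts of Cd36 varied about as much in both groups, with coefficients of variation of 13.3% in WT and 13.6% in MøFoxO1-KO livers.

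Macrophages are a source of Cd36 besides hepatocytes, and their markers differed within and between the groups. The 10 Kupffer cell and macrophage markers summed to 3921 to 5947 normalized counts in WT livers and 3954 to 16470.3 in MøFoxO1-KO livers. At an unadjusted P under 0.05, 6 of the 10 were higher and 0 lower, against 8.65% and 8.06% of all genes tested. Lyz2, whose promoter drives the Cre, had a lower log2 fold change estimate, -0.77. Much of the highest sum was Cd5l, Clec4f and Marco, with 4685, 3180 and 2115 normalized counts in MøFoxO1-KO replicate 29. Among MøFoxO1-KO mice, replicate 28 had the lowest sum and replicate 29 the highest, and both had Cd36 near the top of their group. The 8 markers of lipid-associated macrophages summed to 7956 to 9637 in WT and 7031 to 9626 in MøFoxO1-KO livers. Most of this sum was Ctsd, with means of 6620 in WT and 6111 in MøFoxO1-KO livers, so the sum says little about the other markers. Of the 8 markers, Trem2, Gpnmb and Cd63 were lower at an unadjusted P under 0.05, beside 8.06% of all genes tested. Cd9 (0.41) and Lgals3 (0.26) had higher log2 fold change estimates, and the median of the 8 markers was -0.17. Trem2 ranged from 11.9 to 88.4 normalized counts in WT and from 0 to 6.63 in MøFoxO1-KO livers. The 10 endothelial markers summed to 2487 to 5881 in WT and 4357 to 7026 in MøFoxO1-KO livers, with 0 of 10 at an unadjusted P under 0.05. The part of these cells in the Cd36 difference was not tested.

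Of the 9 genes, 6 had a start in the RefSeq promoter table, with 8 windows of 250 bases before to 50 bases after it on GRCm38.p6. The windows of Cd36 and Vldlr are printed as those of the genes with the lower counts, and that of Slc27a2 as the most abundant gene, 5′ to 3′ on the strand of the gene. Capitals mark AGGTCA, the half-site bound by nuclear receptors such as PPARs, or its reverse complement. The Cd36 window is chr5:17835847-17836146 on the minus strand, the Vldlr windows are chr19:27216234-27216533 and chr19:27216770-27217069 on the plus strand, and the Slc27a2 window is chr2:126552774-126553073 on the plus strand. The Cd36 start lies inside the annotated gene, whose 5′ end on the minus strand is at 17888801. Its window thus shows an internal start and not the outermost one. The Slc27a2 window and the second Vldlr window also lie inside the annotated genes, which begin at 126552407 and 27216484 on the plus strand.
Cd36: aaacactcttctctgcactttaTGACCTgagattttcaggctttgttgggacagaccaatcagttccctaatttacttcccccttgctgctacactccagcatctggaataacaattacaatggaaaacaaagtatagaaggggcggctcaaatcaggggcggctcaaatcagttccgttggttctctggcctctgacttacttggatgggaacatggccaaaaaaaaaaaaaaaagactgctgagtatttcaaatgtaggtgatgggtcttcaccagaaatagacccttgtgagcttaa
Vldlr, start 1: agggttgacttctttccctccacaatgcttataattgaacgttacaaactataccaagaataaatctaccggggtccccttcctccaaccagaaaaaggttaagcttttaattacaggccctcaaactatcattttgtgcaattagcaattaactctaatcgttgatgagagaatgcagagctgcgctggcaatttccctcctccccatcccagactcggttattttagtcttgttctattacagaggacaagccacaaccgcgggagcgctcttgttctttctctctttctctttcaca
Vldlr, start 2: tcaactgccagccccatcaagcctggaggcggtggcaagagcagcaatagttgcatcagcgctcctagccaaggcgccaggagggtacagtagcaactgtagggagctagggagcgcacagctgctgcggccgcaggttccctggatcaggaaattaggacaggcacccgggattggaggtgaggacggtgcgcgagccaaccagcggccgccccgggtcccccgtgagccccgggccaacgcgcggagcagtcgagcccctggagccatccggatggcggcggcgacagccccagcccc
Slc27a2: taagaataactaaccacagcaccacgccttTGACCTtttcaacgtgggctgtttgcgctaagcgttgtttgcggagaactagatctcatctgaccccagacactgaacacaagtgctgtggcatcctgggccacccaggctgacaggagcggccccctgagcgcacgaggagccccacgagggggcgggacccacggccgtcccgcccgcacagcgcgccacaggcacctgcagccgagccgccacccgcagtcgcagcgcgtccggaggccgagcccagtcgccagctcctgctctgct

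In the Cd36 window, AGGTCA was found once, on the opposite strand at position -228 relative to the start. Slc27a2, whose counts were not lower, had the same letters at -220 on the opposite strand, and a start of Lipc had them at -88 and, on the opposite strand, at -76. Both Vldlr windows lacked them. AGGTCA occurs on either strand in 16.3% of the 32851 RefSeq windows of this length. The forkhead core GTAAACA, present in 3.65% of windows, and TATAAA, the TATA box, present in 13.6%, were found in 0 of the 8 windows of the uptake genes. These matches describe letters and not binding. The Cd36 window had 43% G and C, whereas the second Vldlr window had 68% and the Slc27a2 window 65.3%.

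Slc27a2, which encodes FATP2, an acyl-CoA synthetase and fatty acid transporter abundant in hepatocytes, was the most abundant of the 9 genes (ENSMUSG00000027359, chromosome 2, 126552407 to 126588243, plus strand). Its normalized counts were 30612, 30459, 30008 and 29099.7 in WT replicates 22 to 25. In MøFoxO1-KO replicates 26 to 29 they were 32827, 36988, 31622 and 30632. All MøFoxO1-KO livers were above all WT livers, although replicate 29 was above WT replicate 22 by a small margin. Means were 30045 ± 680.1 and 33017 ± 2795 (SD, n = 4 each), or 0.14 ± 0.12 (SE) as a log2 fold change with a 95% interval from -0.13 to 0.41 (edgeR, adjusted P = 0.617). The exact permutation test again gave its smallest P, 0.0286. The 2 genes with all MøFoxO1-KO livers lower (Cd36 and Vldlr) and the 1 with all higher (Slc27a2) stand beside 4.71% and 5.00% of all genes tested, and the groups of the other 6 overlapped. The antisense gene Gm26697 shares 9.80% of the 50-base stretches of Slc27a2, and at most 11 reads were counted on it in any mouse.

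Slc27a4 encodes FATP4, a related acyl-CoA synthetase (ENSMUSG00000059316, chromosome 2, 29802634 to 29817522, plus strand). WT livers had 795, 941, 666 and 707 normalized counts, and MøFoxO1-KO livers had 695, 647, 579 and 645. In 3 of the 4 MøFoxO1-KO mice Slc27a4 was lower than in every WT mouse, and replicate 26 overlapped the WT range. Slc27a4 had a log2 fold change of -0.28 ± 0.13 (SE) with a 95% interval from -0.56 to 0.01 (edgeR, adjusted P = 0.316).

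Fabp4, the fatty acid binding protein of adipocytes and macrophages, was low in these livers (ENSMUSG00000062515, chromosome 3, 10204088 to 10208576, minus strand). WT livers had 221, 140.3, 272 and 224 normalized counts, and MøFoxO1-KO livers had 302, 290, 195 and 194. MøFoxO1-KO replicates 26 and 27 were above all WT livers, and the other two lay within the WT range. The estimate on the log2 scale was 0.20 ± 0.23 (SE) with a 95% interval from -0.31 to 0.70 (edgeR, adjusted P = 0.709). Of the 6 adipocyte markers, Lep had 0 reads in all mice, and Adipoq, Plin1 and Retn had at most 3 reads in any mouse. Adig had 30 and 55 reads in WT replicates 22 and 23 and at most 2 in the other mice. Cfd was 2342, 2045, 140.0 and 382 normalized counts in WT replicates 22 to 25 and 1.91, 11.9, 4504 and 0 in MøFoxO1-KO replicates 26 to 29. In the livers with the most Cfd, Fabp4 was 221 and 140.3 normalized counts (WT replicates 22 and 23) and 195 (MøFoxO1-KO replicate 28). The part of adipocytes in these values was not tested.

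**Figure D2:**
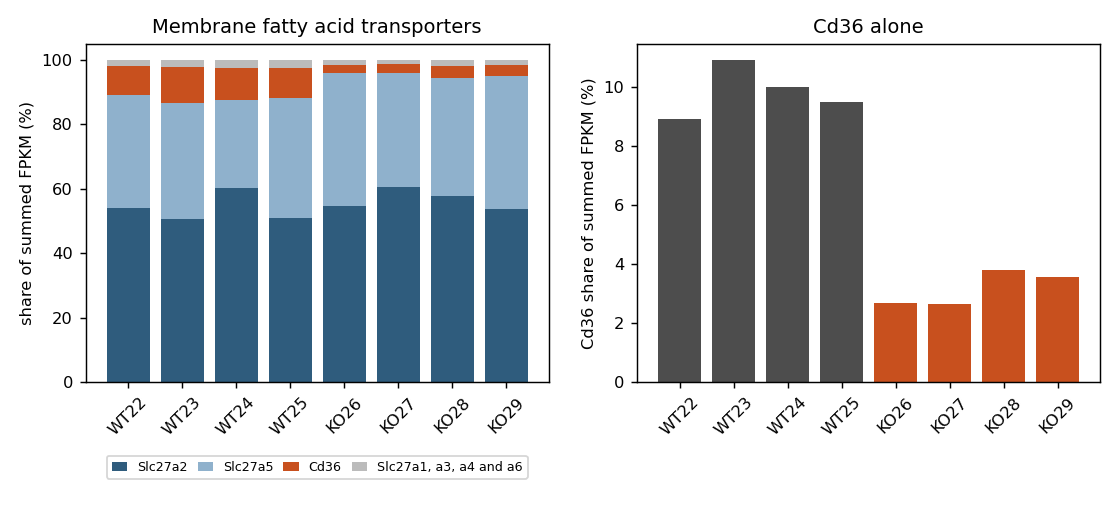
Share of each membrane fatty acid transporter in their summed FPKM (y axes, percent, from 0) for each mouse (x axis, where KO stands for MøFoxO1-KO). The left panel stacks Slc27a2, Slc27a5, Cd36 and the remaining Slc27a genes, and the right panel shows Cd36 alone, from 8.90 to 10.9% in WT mice and from 2.66 to 3.78% in MøFoxO1-KO mice.

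Levels were compared between genes as FPKM, reads scaled by exon length and by library size. Cd36 and the Slc27a genes 1 to 6, the membrane transporters, summed to 908 ± 70.7 FPKM for WT and 945 ± 47.3 FPKM for MøFoxO1-KO livers (SD, n = 4 each). Cd36 held 9.82 ± 0.853% of this sum in WT and 3.17 ± 0.585% in MøFoxO1-KO livers. Slc27a2 held 54.0 ± 4.48% and 56.7 ± 3.15%, and Slc27a5, the bile acid and very long chain acyl-CoA synthetase FATP5, held 33.9 ± 4.49% and 38.6 ± 3.11%. Thus Slc27a2 and Slc27a5 were each above Cd36 per length in every mouse, and Slc27a1, Slc27a3, Slc27a4 and Slc27a6 were each below it. Slc27a1, which encodes the insulin-responsive FATP1, held 1.03 ± 0.290% and 0.510 ± 0.218%.

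Vldlr encodes the receptor of triglyceride-rich particles, which is low in normal liver (ENSMUSG00000024924, chromosome 19, 27216484 to 27254231, plus strand). WT replicates 22, 23, 24 and 25 had 267, 261, 355 and 393 normalized counts. MøFoxO1-KO replicates 26, 27, 28 and 29 had 69.8, 60.8, 113 and 200.0 normalized counts. All MøFoxO1-KO livers were under all WT livers, and replicate 29 was the nearest to the WT range. The WT mean of 319 ± 65.4 was 2.88 times the MøFoxO1-KO mean of 111 ± 63.6 (SD, n = 4 each). As a log2 fold change, Vldlr had -1.53 ± 0.34 (SE) with a 95% interval from -2.29 to -0.77, at an unadjusted P of 0.00117 and an adjusted P of 0.102 in edgeR. The coefficient of variation was 20.5% in WT and 57.4% in MøFoxO1-KO livers, and the fewest reads were 51.

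Whether Vldlr was called depended on the analysis. DESeq2 gave a log2 fold change of -1.52 and an adjusted P of 0.00101, and it called 2 of the 9 genes, Cd36 and Vldlr, beside 0.634% of the genes for which it gave an adjusted P being called lower. Without the filter on low counts edgeR gave -1.54 and an adjusted P of 0.0178, so that Cd36 and Vldlr were both called beside 0.279% of its genes called lower. Leaving out MøFoxO1-KO replicate 29 gave -1.97 and an adjusted P of 0.0339 in edgeR. Under every other alternative fit Vldlr was not called. Its adjusted P was 0.0816 in limma-voom and 0.116 in robust edgeR. In edgeR it was 0.113 with upper-quartile scaling and 0.309 without MøFoxO1-KO replicate 27. Replicate 29 was also the liver with the highest macrophage sum, 16470.3 normalized counts, and in replicate 27, with the second highest of its group at 10862, Vldlr was at its lowest. The part of macrophages in the Vldlr difference was not tested.

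Lrp1, which encodes the large endocytic receptor of chylomicron and VLDL remnants, had 8103, 11077, 8904 and 9883 normalized counts in WT livers (ENSMUSG00000040249, chromosome 10, 127538161 to 127621148, minus strand). MøFoxO1-KO livers had 10672, 12053, 10483 and 10256. The MøFoxO1-KO values lay in the upper part of the WT range, with replicate 27 above it. Lrp1 had a log2 fold change of 0.20 ± 0.13 (SE) and a 95% interval from -0.10 to 0.49 (edgeR, adjusted P = 0.505).

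Scarb1 encodes SR-B1, the receptor that takes cholesteryl ester from HDL (ENSMUSG00000037936, chromosome 5, 125277087 to 125341094, minus strand). WT livers had 4009, 5283, 2885 and 2979 normalized counts, and MøFoxO1-KO livers had 3820, 3046, 3153 and 2626. Replicates 22 and 23 were high among WT livers, and the other two lay among the MøFoxO1-KO values. This gave a log2 fold change of -0.26 ± 0.21 (SE) and a 95% interval from -0.72 to 0.20 (edgeR, adjusted P = 0.567).

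Lpl encodes lipoprotein lipase, which is made in muscle, fat and macrophages more than in the adult liver (ENSMUSG00000015568, chromosome 8, 68880491 to 68907448, plus strand). WT livers had 536, 1203, 1463 and 687 normalized counts. MøFoxO1-KO livers had 852, 897, 1288 and 1387. The WT livers spanned the whole MøFoxO1-KO range, with a coefficient of variation of 44.7% against 24.5%. On the log2 scale the difference was 0.19 ± 0.30 (SE), and its 95% interval from -0.49 to 0.86 was the second widest of the 9 genes after Vldlr (edgeR, adjusted P = 0.799). Without WT replicate 22 it was -0.02.

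Lipc encodes hepatic lipase, made by hepatocytes (ENSMUSG00000032207, chromosome 9, 70798129 to 70934808, minus strand). Normalized counts were 2803, 2086, 1976 and 2612 in WT and 2719, 2983, 2585 and 2792 in MøFoxO1-KO livers. The MøFoxO1-KO livers were close together and overlapped the upper WT livers, replicates 22 and 25. Lipc had a log2 fold change of 0.23 ± 0.14 (SE) and a 95% interval from -0.08 to 0.53 (edgeR, adjusted P = 0.446).

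**Figure D3:**
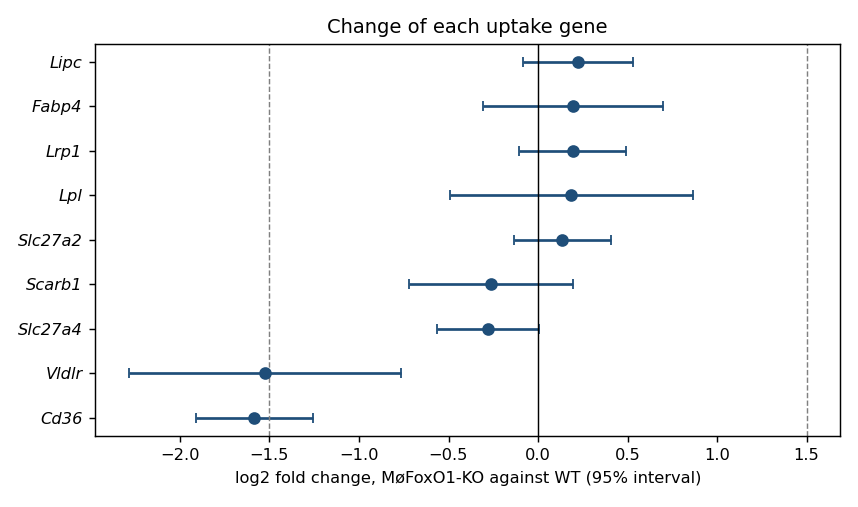
Log2 fold change of each uptake gene (x axis, MøFoxO1-KO against WT, edgeR) with its 95% interval, one gene per line. Dashed lines mark the limit of 1.5 in either direction. The intervals of Cd36 and Vldlr lie under 0, that of Slc27a4 ends at 0.01, and those of the other 6 genes span 0.

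The intervals of the 7 genes that were not different at an unadjusted P under 0.05 reached from -0.72 (Scarb1) to 0.86 (Lpl), so a change as large as that of Cd36 lay outside each of them, and smaller changes were within them. These are intervals for each gene alone.

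**Figure D4:**
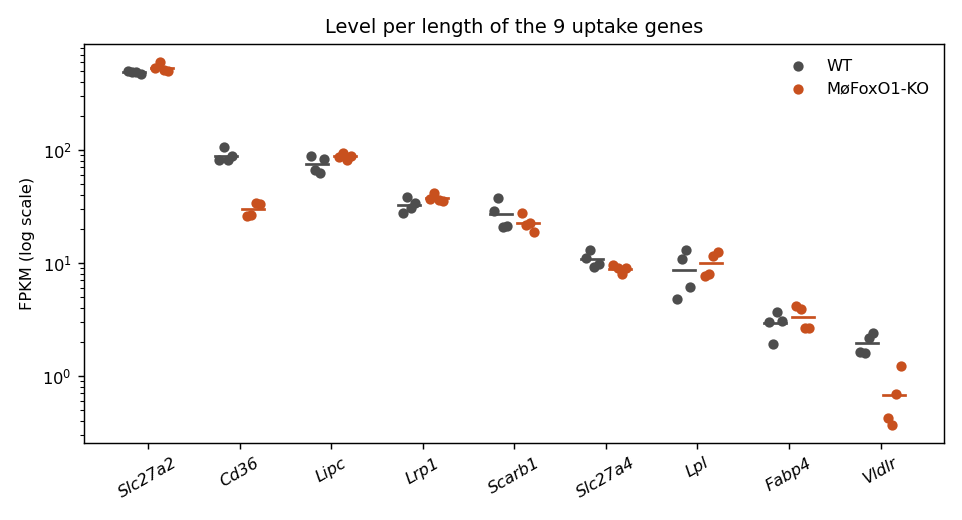
FPKM of the 9 uptake genes (y axis, log scale) in each WT and MøFoxO1-KO mouse, ordered by the WT mean, with lines at the group means. Slc27a2 lies above all others in both groups, and Cd36 is the gene that moves down most in the order, from 89.3 to 29.8 FPKM.

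In WT livers the order of mean FPKM was Slc27a2 (488 ± 11.1, SD, n = 4), Cd36 (89.3 ± 11.9), Lipc (75.3 ± 12.7), Lrp1 (32.7 ± 4.42), Scarb1 (27.2 ± 8.03), Slc27a4 (10.7 ± 1.68), Lpl (8.71 ± 3.89), Fabp4 (2.91 ± 0.740) and Vldlr (1.93 ± 0.396). Values of single mice overlapped between Cd36 and Lipc, Lrp1 and Scarb1, Slc27a4 and Lpl, and Fabp4 and Vldlr, so these neighbours were not set apart. In MøFoxO1-KO livers Lipc (88.0 ± 5.27) and Lrp1 (37.4 ± 2.79) came before Cd36 (29.8 ± 4.06), and their mice did not overlap with those of Cd36. Cd36 then overlapped with Scarb1 (22.7 ± 3.55), and Lpl (9.91 ± 2.43) with Slc27a4 (8.87 ± 0.663). Slc27a2 (537 ± 45.4) stayed first and Vldlr (0.671 ± 0.385) last, and Fabp4 (3.33 ± 0.797) was above Vldlr in every MøFoxO1-KO mouse.

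The tested genes whose normalized counts were most like those of Cd36 over the 8 mice were Ppl, Nqo1 and Maoa, which encode periplakin, a quinone reductase and monoamine oxidase A. The measure was the root mean square difference of log2 normalized counts after each gene's mean was taken off, at 0.271, 0.276 and 0.285. The mean was over both groups, so the measure includes the group difference, and genes of a similar fold change come out near each other. Log2 fold changes of Ppl, Nqo1 and Maoa were -1.54, -1.22 and -1.39. Means of Ppl were 262 ± 87.0 in WT and 90.0 ± 9.29 normalized counts in MøFoxO1-KO livers. The genes most like Vldlr were Barhl1 at 0.386, Maoa at 0.389 and Tceal8 at 0.398. Barhl1 had low counts, with means of 21.6 in WT and 10.8 in MøFoxO1-KO livers (edgeR, adjusted P = 0.272). Maoa, with 180.3 ± 4.05 normalized counts in WT and 68.6 ± 22.4 in MøFoxO1-KO livers, was thus near both Cd36 and Vldlr. Cd36 and Vldlr differed from each other by 0.451, and every other uptake gene differed from Cd36 by at least 0.687.

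**Figure D5:**
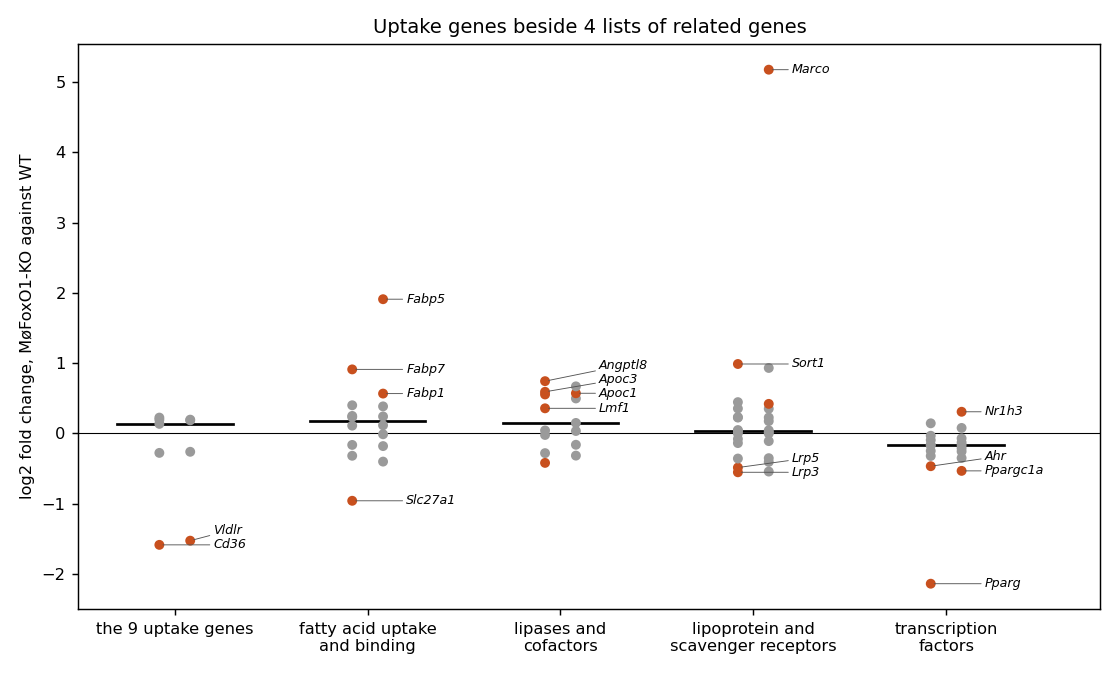
Log2 fold changes (y axis, MøFoxO1-KO against WT, edgeR) of the 9 uptake genes and of the tested genes of 4 lists of related genes (x axis). Each point is a gene, orange at an unadjusted P under 0.05, and the bar is the median. The medians lie between -0.17 and 0.17, and Marco at 5.18 and Pparg at -2.14 lie farthest from 0.

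Of 83 further genes of lipid uptake in 4 lists, 75 were tested and 0 were called by edgeR or limma-voom. At an unadjusted P under 0.05 in edgeR, 12 had higher and 7 had lower counts in MøFoxO1-KO than in WT mice, and the smallest adjusted P was 0.0870. The same limit was met by 8.65% of all genes tested for higher and 8.06% for lower counts. The count of 19 was 11 without WT replicate 23, without MøFoxO1-KO replicate 27 or without MøFoxO1-KO replicate 29. The higher genes were 7 without MøFoxO1-KO replicate 27, and the lower genes were 3 to 4 without these mice and 11 without MøFoxO1-KO replicate 26. DESeq2 called 2 of them, Fabp5 and Marco, with adjusted P values of 0.00301 and 0.000499, where 0.586% of its genes were called higher. The same 2 genes were called by edgeR without the filter on low counts.

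Among 16 tested genes of fatty acid uptake and binding, 3 were higher and 1 lower at an unadjusted P under 0.05. All genes tested had 8.65% higher and 8.06% lower, and the median log2 fold change of the 16 was 0.17. Fabp5, a fatty acid binding protein of macrophages and epithelia, had 54.2, 47.1, 86.6 and 66.6 normalized counts in WT and 172, 538, 83.3 and 169 in MøFoxO1-KO livers. It overlapped between the groups through MøFoxO1-KO replicate 28, at a log2 fold change of 1.91 ± 0.50 (SE; edgeR, adjusted P = 0.131). Without MøFoxO1-KO replicate 27, the liver with 538, it was 1.16 with an adjusted P of 0.317 in edgeR. Fabp1, the liver fatty acid binding protein, averaged 53140.3 and 78720 normalized counts, a log2 fold change of 0.57 ± 0.22 (SE). Slc27a1 had a log2 fold change of -0.96 ± 0.27 (SE) and Fabp7 of 0.91 ± 0.39 (SE). When MøFoxO1-KO replicate 29 was left out, Fabp7 had 0.30 (edgeR, unadjusted P = 0.184).

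Among 15 tested lipases and cofactors, 5 were higher and 1 lower at that limit, beside 8.65% and 8.06% of all genes tested. Their median was 0.15. Angptl8, which encodes a secreted regulator of lipoprotein lipase, had 1110, 888, 610 and 1349 normalized counts in WT and 1580, 1893, 1722 and 1431 in MøFoxO1-KO livers. Its groups did not overlap, and its log2 fold change was 0.74 ± 0.22 (SE; edgeR, adjusted P = 0.157). Apoc3 (0.59), an inhibitor of lipoprotein lipase and of remnant uptake, Apoc1 (0.57) and Lmf1 (0.36), which helps lipases to mature, had higher log2 estimates. Their adjusted P values in edgeR were 0.225, 0.248 and 0.212.

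Among 26 tested lipoprotein and scavenger receptors and their partners, 3 were higher and 2 lower at that limit. The shares of all genes tested were 8.65% and 8.06%, and the median of the 26 was 0.04. Marco, a scavenger receptor of Kupffer cells and also one of the macrophage markers, had 18.7, 4.91, 81.0 and 49.7 normalized counts in WT and 736, 2707, 66.3 and 2115 in MøFoxO1-KO livers. MøFoxO1-KO replicate 28 lay within the WT range, and the log2 fold change was 5.18 ± 1.06 (SE; edgeR, adjusted P = 0.0870). Sort1, a sorting receptor for apolipoprotein B, had a log2 fold change of 0.99, and Lrp3 and Lrp5 had -0.55 and -0.49. Lrp5 was -0.27 without WT replicate 23.

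Among 18 tested transcription factors of these genes, 1 was higher and 3 lower at that limit, beside 8.65% and 8.06% of all genes tested. Their median was -0.17. Pparg, the nuclear receptor of adipocytes and macrophages for which Cd36 and Fabp4 are known targets, had 479, 465, 530.5 and 288 normalized counts in WT livers and 8.61, 81.0, 257 and 51.4 in MøFoxO1-KO livers. All MøFoxO1-KO livers were lower, with replicate 28 close to WT replicate 25, and the log2 fold change was -2.14 ± 0.67 (SE; edgeR, adjusted P = 0.181). Without MøFoxO1-KO replicate 28 it was -3.24 with an adjusted P of 0.0376 in edgeR. Nr1h3, which encodes the oxysterol receptor LXRα, had a log2 fold change of 0.31, Ahr of -0.47 and Ppargc1a of -0.53, each with an adjusted P over 0.05.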

How the data were processed

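Livers of 4 MøFoxO1-KO mice and 4 WT littermates were compared from a table of read counts per gene, which the authors deposited without normalization. Per the file headers it holds Ensembl genes of GRCm38 with summed exon length, the length used for FPKM. The submitters' processing notes name STAR, featureCounts and mm10. Versions, strand setting and treatment of multi-mapped reads are not given in the sources used here, and libraries were made from polyadenylated RNA. Symbols came from the annotation for 46005 of 46517 genes. Replicates were taken as separate mice.

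Genes passing filterByExpr (minimum count 10, minimum total 15) were tested with edgeR 4.0.16 (R 4.3.3), by its quasi-likelihood test after TMM scaling, and Benjamini-Hochberg adjustment over 13278 genes. The common biological coefficient of variation was 0.256. Calls needed a log2 fold change of over 1.5 in either direction beside an adjusted P under 0.05. Standard errors are the absolute log2 fold change divided by the square root of F. Exact two-sided permutation tests used scipy 1.17.1. In counts simulated for 13278 genes, with 200 changed by 2.5 on the log2 scale, edgeR recovered 200 with 1 false call. DESeq2 and limma-voom recovered 200 each with 0 false calls. Every simulated gene had the common coefficient of variation of 0.256, and only well-counted genes were changed, by more than the limit of 1.5. The simulation therefore cannot show how the tools perform for genes that vary more, have fewer reads or change less.

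Alternatives were DESeq2 1.42.0, limma-voom (limma 3.58.1), robust edgeR, DESeq2 size factors, upper-quartile scaling, no filter, at least 10 counts in every mouse, library totals without TMM for levels, and leaving out each mouse. The genes and lists were chosen with earlier results of these data known. Named genes were the 9 uptake genes, the called genes and up to 4 further genes with the smallest unadjusted P under 0.05 of each list, the 3 genes most like each uptake gene at an unadjusted P under 0.05 (log2 of normalized counts plus 0.5), and genes overlapping an uptake gene. Promoter sequences are those of RefSeq, GRCm38.p6.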

Additional observations from a re-analysis of the deposited data

Results flagged for a closer look

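In a test of the highest and lowest mouse of each group over 25 named genes and 50 groups of 4, 2 livers stood apart, and chance gives about 1 in 20 groups. Slc27a1 was 340.0 normalized counts in MøFoxO1-KO replicate 28 and between 169 and 186 in the other MøFoxO1-KO livers. Fabp7 was 292 normalized counts in MøFoxO1-KO replicate 29 and between 79.5 and 114 in the others of its group.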

How the results depend on the processing

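The number of called uptake genes was 1. It was 2 without the filter on low counts and 2 with DESeq2, where Vldlr was called at log2 fold changes of -1.54 (edgeR, adjusted P = 0.0178) and -1.52 (DESeq2, adjusted P = 0.00101). When 1 mouse at a time was left out, 0 to 2 uptake genes were called, with 0 in the absence of WT replicate 23 and 2 without MøFoxO1-KO replicate 29. Cd36 then ranged from -1.64 to -1.49 and Vldlr from -1.97 to -1.32, and both had an unadjusted P under 0.05 in 8 of 8 such fits. Lpl ranged from -0.02 to 0.45 and turned in direction, to -0.0164, without WT replicate 22. The other 6 uptake genes kept their direction under all alternatives run. Uptake genes at an unadjusted P under 0.05 numbered 2 to 3 and those without overlap 3 to 4. For the related genes the same omissions gave 11 to 24 at an unadjusted P under 0.05, of which 7 to 13 were higher and 3 to 11 lower. Without TMM scaling the order of all 9 levels was the same.

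With 4 mice per group, edgeR P values set the group difference against the variation estimated from these mice. That estimate also draws on the variation of all genes tested. The lowest counts were those of Vldlr, with 51 reads, whose interval was the widest of the 9 genes. Slc27a2, Lrp1 and Lipc overlap Gm26697, Gm16217 and Gm3436 on the opposite strand. Shared reads of these pairs cannot be told apart, as the strand setting is unknown. Gm42633 and Gm25149 lie on the same strand as Scarb1 and Lipc, so a strand setting would not separate them. The overlapping genes had at most 11 counted reads in any mouse, a count that need not hold every shared read. Of the 50-base stretches of Lpl 1.40% occur in other genes. No paired analysis was possible because the sample labels give no litter or other pairing, so litter was not taken into account.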

Other observations

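Of the related genes, 8 had too few reads to be tested. Fabp6, the bile acid binding protein of the ileum, had 0 reads in all 8 livers. Slc27a6 and Fabp3, the transporter and binding protein known from heart, had at most 3 and 4 reads in any mouse. Olr1, the oxidized LDL receptor, had at most 9 reads, Lrp2 at most 10, Lrp8 at most 4, Acsl6 at most 11 and Pnliprp1 at most 17.

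Among WT livers, replicate 23 had the highest normalized counts of 4 uptake genes (Cd36, Lrp1, Scarb1 and Slc27a4) and the lowest of 2 (Vldlr and Fabp4). Its endothelial markers summed to 2487 normalized counts, against 4737 to 5881 in the other WT livers. Among MøFoxO1-KO livers, replicate 29 was lowest for 4 uptake genes (Lrp1, Scarb1, Slc27a2 and Fabp4) and highest for Vldlr and Lpl.

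Col1a1 and Col3a1, the fibrillar collagens of stellate cells, were the 2 of 8 stellate cell and fibroblast markers with an unadjusted P under 0.05. Both were lower in MøFoxO1-KO livers, whereas the median log2 fold change of the 8 markers was 0.02. Acta2, Dcn, Des and Reln had higher estimates in MøFoxO1-KO livers, and Lrat and Pdgfrb had lower ones. Col1a1 ranged from 248 to 512 normalized counts in WT livers and from 46.5 to 227 in those of MøFoxO1-KO mice, and Col3a1 from 639 to 1228 and from 317 to 743. Of 8 hepatocyte markers, Apoa1 and Asgr1 were higher at an unadjusted P under 0.05, and of 6 lymphocyte markers 0 were. Across all genes tested, 8.65% were higher and 8.06% lower at this limit.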
